A study of Ovis aries with 8 samples.

Results

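Transcripts of 115 voltage-gated and related ion channel genes were examined in the mediobasal hypothalamus of ewes under food restriction. The members were taken by symbol. They were the potassium channel genes whose names begin with KCN, the pacemaker genes HCN, the sodium channel genes SCN with a subunit letter A or B, and the calcium channel genes CACNA, CACNB and CACNG, with a total of at least 80 read counts over 8 pools. Of 33609 genes in the table, 136 had such symbols and 117 of them reached that total. KCNJ8 and SCN7A, which mark other cells, were left out. The animals were adult Ile-de-France ewes. Food-restricted ewes were compared with well-fed ewes, which ate ad lib, with 60 ewes a group and 30 of them in each of 2 years. Each of the 4 pools of a group was a random mix, in equal amounts, of mRNA from 15 ewes, so n counts pools. The labels do not give the length or degree of the restriction, or which year's ewes a pool holds.

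Ion channels set whether and how a neuron fires. Voltage-gated sodium channels start the action potential, and voltage-gated potassium channels end it and set how fast the next can follow. Calcium channels carry the calcium that triggers transmitter and peptide release, and their low-threshold members drive burst firing. HCN channels depolarise a resting cell, while inward rectifier, M-current and two-pore leak potassium channels hold it near rest and are closed or opened by receptors and metabolites. In arcuate neurons that control feeding and reproduction, ATP-sensitive, M-current, small-conductance, T-type and HCN channels have all been studied as points at which hormones act on firing. Most of these channels are assembled from a pore-forming subunit and accessory subunits, which are described here beside each other.

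Total counts were between 36192025 and 48125991 in the 8 pools, and the members held between 0.342% and 0.388% of them. Neuronal transcripts were abundant: the vesicle protein gene SNAP25 was at 622 ± 71.0 against 582 ± 37.0 CPM, and the glial genes GFAP, at 6058 ± 832 against 6649 ± 471 CPM, and MBP, at 1825 ± 611 against 1684 ± 708 CPM, were abundant too. Here and below, such a pair gives the mean ± SD of the 4 food-restricted pools, then that of the 4 well-fed pools. CPM are read counts per 1000000 counts of the library, with library sizes scaled by TMM. The block holds neurons and glia, and in such bulk RNA fewer cells of a type and less RNA per cell cannot be told apart. They are not divided by transcript length, which the sources used here do not give, so levels are compared between pools and never between genes. Mean levels of the members lay between 0.290 and 230.1 CPM, with 13 members under 1 CPM and 68 over 10 CPM. The leading, or first, principal component of log2 CPM over all 18193 tested genes held 34.7% of the variance and did not part the feeding groups. Food-restricted pools 1 and 2 and well-fed pools 3 and 4 lay above 0, and the remaining pools below.

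No ion channel transcript passed the test for food restriction. All 115 members were tested, and 0 of them passed (edgeR quasi-likelihood test, Benjamini-Hochberg adjustment over all genes, lowest adjusted p = 0.99998), where 0.0055% of all tested genes, the single gene AGRP, passed as higher and 0% as lower. At an unadjusted edgeR p under 0.05, 0 members were higher, against 0.671% of all tested genes, and 2 of 115 members (1.74%) were lower, against 1.03%. The members whose 4 food-restricted pools all lay below the 4 well-fed pools also numbered 2 (1.74% against 1.1% of all tested genes), and 0 members had all food-restricted pools above (0.495% of all tested genes). These shares are near those of genes in general. DESeq2 and limma voom each gave 0 calls among the members as well, where they called 4 and 1 of all 18193 tested genes. Each had 2 members at an unadjusted p under 0.05, and the share of all tested genes at such a p was not counted there. With the side of each pool on that component as a block in edgeR, 0.033% of all tested genes passed and 0 members did (lowest adjusted p = 0.991).

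Precision varied with the level of the transcript. Log2 fold changes (food-restricted minus well fed) had a median of -0.03 over the members and 0.01 over all tested genes. Of the members 47 (40.9%) were above 0 and 68 below, where 52.9% of all tested genes were above 0. In 43 members the estimate was within 0.1 of 0. For 58 of the 115 members the 95% interval of the log2 fold change lay within a 1.5-fold change in either direction, and for 87 within a 2-fold change. Of the 68 members over 10 CPM, the 2-fold bound held for 68 and the 1.5-fold bound for 54, and their estimates ran from -0.41 to 0.31. The 9 members whose estimate exceeded 0.5 in size all had mean levels of 2.36 CPM or less and SEs of 0.34 or more. These intervals are not adjusted for the number of genes.

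**Figure D1:**
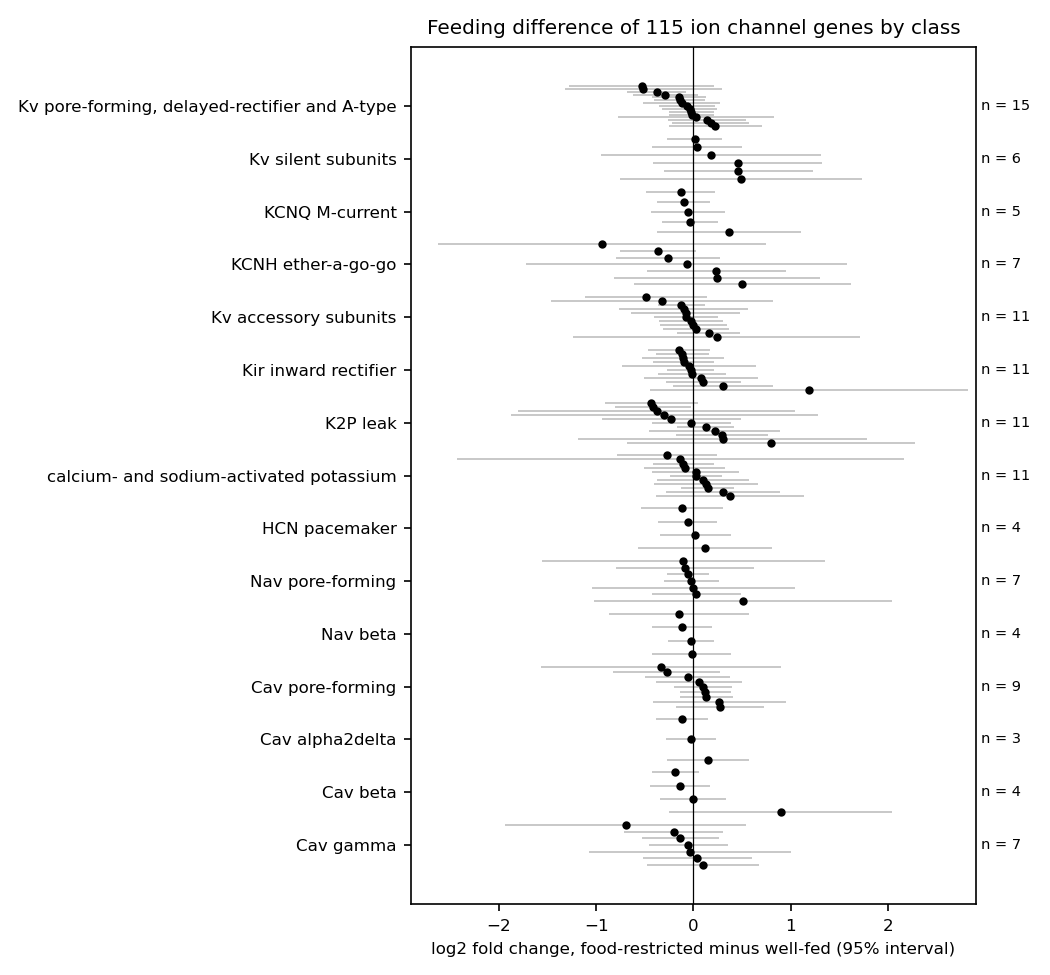
Log2 fold change of each ion channel gene between the food-restricted and the well-fed pools (x axis), by channel class (y axis). Points are edgeR estimates from 4 pools a group, grey lines are their 95% intervals, and n is the number of genes in a class. Estimates lie on both sides of 0 in 13 of 15 classes, and the intervals far from 0 are wide.

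The voltage-gated potassium channels that shape the spike (KCNA, KCNB, KCNC and KCND) had 4 of 15 members higher and 11 lower in the fit, with a median log2 fold change of -0.07 and 0 calls. Of the KCNC channels, which let neurons fire at high rates, KCNC1 was at 36.8 ± 2.78 against 37.4 ± 1.04 CPM (log2 fold change -0.02, SE 0.11), KCNC2 at 32.7 ± 3.03 against 33.5 ± 3.91 CPM (-0.04, SE 0.13) and KCNC4 at 57.4 ± 13.7 against 62.4 ± 10.3 CPM (-0.12, SE 0.18).

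KCNA1, a low-threshold channel of axons, had the fifth smallest p of all members. KCNA1 was at 14.4, 11.5, 15.0 and 13.0 CPM in food-restricted pools 1 to 4 and at 19.3, 16.5, 15.9 and 14.2 CPM in well-fed pools 1 to 4, where well-fed pool 4 lay inside the food-restricted range (log2 fold change -0.29, SE 0.15, edgeR unadjusted p = 0.0808). Its partner KCNA2 was at 1.87 ± 0.765 against 1.83 ± 0.365 CPM (0.03, SE 0.36). KCNB2, a slow delayed rectifier of cell bodies, was at 1.95 ± 1.09 against 2.78 ± 0.382 CPM (-0.51, SE 0.37). Food-restricted pool 2, at 3.54 CPM, was the highest KCNB2 pool and the other 3 food-restricted pools, at 1.08 to 1.64 CPM, were the lowest. Of the A-type channels, which delay firing, KCND2 was at 19.4 ± 4.28 against 17.2 ± 2.36 CPM (0.18, SE 0.18) and KCND3 at 1.69 ± 0.364 against 2.45 ± 0.903 CPM (-0.53, SE 0.34). KCNA5 and KCNC1 varied little, with all 8 pools between 79.1 and 98.2 CPM and between 33.5 and 40.2 CPM.

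**Figure D2:**
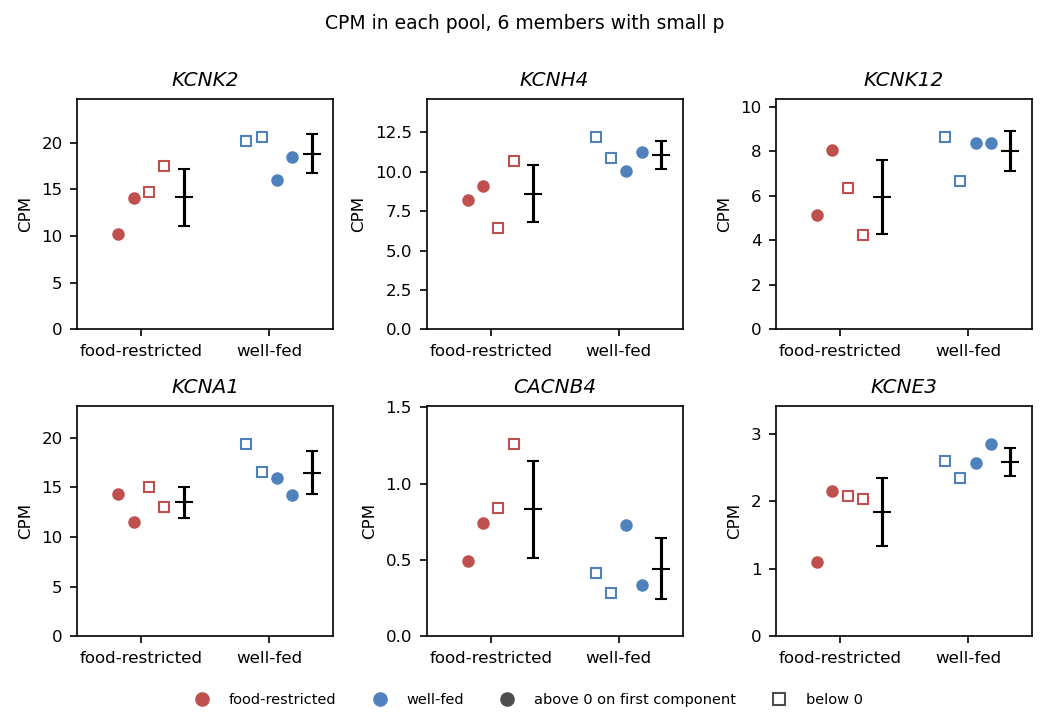
CPM (y axis, from 0) in each of the 4 food-restricted and 4 well-fed pools for 6 members with small p. Filled circles are pools above 0 on the first principal component and open squares pools below 0, and bars are mean ± SD. Of these 6, only KCNE3 has pools that do not overlap between the groups.

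Silent subunits of the KCNF, KCNG, KCNS and KCNV families form no channel alone and modify KCNB channels. All 6 members were above 0 in the fit (median log2 fold change 0.32), where 52.9% of all tested genes were, and none passed. These signs held under 3 other scalings, which only rescale the same 8 pools. The SEs of the 6 members were large, with a median of 0.37. KCNS3, the member with the smallest p, was at 1.94 ± 0.636 against 1.41 ± 0.324 CPM (0.46, SE 0.35, edgeR unadjusted p = 0.212), and all 6 genes had overlapping pools. KCNS2 was nearly level across the pools, at 12.3 to 13.1 CPM in food-restricted pools and 11.5 to 13.7 CPM in well-fed pools. The accessory subunits of the KCNAB, KCNE and KCNIP families had 3 of 11 members higher and 8 lower (median -0.08). KCNE3, a single-span accessory subunit, was 1 of the 2 members without overlap. KCNE3 was at 1.10, 2.15, 2.08 and 2.04 CPM in food-restricted pools 1 to 4 and at 2.59, 2.34, 2.56 and 2.84 CPM in well-fed pools 1 to 4 (log2 fold change -0.49, SE 0.28, edgeR unadjusted p = 0.116), so that food-restricted pool 1 stood far below and the other 3 stood close under the well-fed pools. KCNIP2, which binds A-type channels, was at 152 ± 13.5 against 166 ± 15.7 CPM (-0.13, SE 0.11).

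The KCNQ genes had 1 of 5 members higher and 4 lower (median -0.05). KCNQ3 and KCNQ5 contribute to the M-current, the brake on repetitive firing that muscarinic and peptide receptors release. KCNQ3 was at 71.2 ± 4.54 against 73.1 ± 11.9 CPM, with a 95% interval of the log2 fold change of -0.33 to 0.25, and KCNQ5 was at 64.6 ± 7.31 against 69.3 ± 7.21 CPM, with an interval of -0.37 to 0.17. For both a 1.5-fold change lies outside the interval. KCNQ1, better known from heart and epithelia, had the smallest p of the class, at 7.66 ± 3.22 against 5.95 ± 2.11 CPM (0.37, SE 0.34, edgeR unadjusted p = 0.301). Among the ether-a-go-go genes, 3 of 7 members were higher and 4 lower. KCNH4, a channel of neurons, was at 8.22, 9.12, 6.44 and 10.7 CPM in food-restricted pools 1 to 4 and at 12.2, 10.9, 10.1 and 11.2 CPM in well-fed pools 1 to 4 (log2 fold change -0.36, SE 0.18, edgeR unadjusted p = 0.0662). The groups overlapped only through food-restricted pool 4, which lay among the well-fed pools.

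Inward rectifiers had 4 of 11 members higher and 7 lower (median -0.03). KCNJ11, the pore of the ATP-sensitive channel that closes when glucose metabolism is high, was at 19.1, 26.2, 20.0 and 19.5 CPM in food-restricted pools 1 to 4 and at 22.8, 20.4, 24.9 and 22.7 CPM in well-fed pools 1 to 4. Food-restricted pool 2 stood above all other pools, and the remaining 3 food-restricted pools were the lowest of the 8. The means were 21.2 ± 3.34 against 22.7 ± 1.83 CPM (log2 fold change -0.10, SE 0.14), with an interval of -0.42 to 0.22 that excludes a 1.5-fold change. Its regulatory partner ABCC8, the sulfonylurea receptor, was at 60.8 ± 13.2 against 60.3 ± 6.90 CPM (0.01, SE 0.17). The subunits of the channels that inhibitory G protein-coupled receptors open were at 24.7 ± 5.44 against 23.0 ± 3.03 CPM for KCNJ3 (0.10, SE 0.17), at 48.4 ± 4.15 against 53.5 ± 9.69 CPM for KCNJ5 (-0.15, SE 0.14) and at 57.5 ± 5.63 against 62.3 ± 7.22 CPM for KCNJ9 (-0.12, SE 0.12). KCNJ9 in food-restricted pool 3, at 49.1 CPM, was the lowest of the 8 pools. KCNJ10, the channel through which astrocytes and oligodendrocytes clear potassium, was at 137 ± 5.99 against 139 ± 16.7 CPM, with an interval of -0.27 to 0.21. KCNJ13, a choroid plexus channel, had the largest estimate of all members (1.18, SE 0.74), and its pools ran from 0.142 to 1.78 CPM in food-restricted pools and 0.167 to 0.450 CPM in well-fed pools. The choroid plexus product TTR was at 54.5 ± 17.0 against 36.8 ± 16.2 CPM (0.57, SE 0.31), and of the 7 ependyma and choroid plexus markers, KCNJ13 among them, 6 were higher (median 0.06; summed levels of 191.1 to 218.4 CPM in food-restricted and 163.4 to 215.0 CPM in well-fed pools). The 1 lower marker of that list was KL (-0.43, SE 0.21), and CLIC6 was at 0.06 (SE 0.19). The part of these cells in the KCNJ13 value was not tested.

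Two-pore leak channels, which set the resting potential, had 5 of 11 members higher and 6 lower (median -0.02). KCNK2 (gene ID 101111729), a leak channel gated by stretch, lipids and temperature, was 1 of the 2 members with a p under 0.05. KCNK2 was at 10.2, 14.1, 14.7 and 17.5 CPM in food-restricted pools 1 to 4 and at 20.2, 20.6, 16.0 and 18.4 CPM in well-fed pools 1 to 4. Food-restricted pools 1 to 3 lay below all well-fed pools, and food-restricted pool 4 lay above well-fed pool 3. The means were 14.1 ± 3.01 against 18.8 ± 2.07 CPM, and the log2 fold change of -0.41 (SE 0.18) had an interval of -0.81 to -0.02 (edgeR unadjusted p = 0.0405, adjusted p = 0.99998). With the side of the pool on that component, taken from these same data, as a block, the estimate was -0.42 (edgeR unadjusted p = 0.00862, adjusted p = 0.991). With the replicate number of the labels as a block it was -0.43 (edgeR unadjusted p = 0.0828), and without food-restricted pool 1 it was -0.28 (edgeR unadjusted p = 0.109). Leaving out any 1 of food-restricted pools 2 and 3 and of well-fed pools 1, 2 and 4 also took its unadjusted edgeR p over 0.05. KCNK2 transcripts are abundant in astrocytes as well as neurons. Of the astrocyte and tanycyte markers 0 of 12 had a p under 0.05, with 9 higher and 3 lower, a median log2 fold change of 0.07, and summed levels of 10948 to 12159 CPM in food-restricted and 11245 to 12192 CPM in well-fed pools. The part of these cells in the KCNK2 value was not tested.

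KCNK12, a subunit not known to carry much current alone, was at 5.13, 8.04, 6.37 and 4.22 CPM in food-restricted pools 1 to 4 and at 8.63, 6.68, 8.38 and 8.39 CPM in well-fed pools 1 to 4 (log2 fold change -0.43, SE 0.22, edgeR unadjusted p = 0.0723), with food-restricted pool 2 inside the well-fed range. KCNK10, a close relative of KCNK2, was at 6.89 ± 1.81 against 5.63 ± 0.650 CPM (0.29, SE 0.21), an estimate on the other side of 0 from that of KCNK2. KCNK1 was at 43.7 ± 5.04 against 40.1 ± 4.89 CPM (0.12, SE 0.13). The acid-sensitive pair KCNK3 and KCNK9 was at 2.49 ± 1.34 against 3.23 ± 2.65 CPM and 0.790 ± 0.545 against 0.642 ± 0.215 CPM, and their intervals of -1.80 to 1.04 and -1.18 to 1.79 include changes over 2-fold in both directions.

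Calcium- and sodium-activated potassium channels, which end bursts, had 7 of 11 members higher and 4 lower (median 0.02). KCNMA1, the large-conductance channel, was at 96.3, 96.2, 123 and 99.0 CPM in food-restricted pools 1 to 4 and at 111, 109, 96.4 and 91.6 CPM in well-fed pools 1 to 4, with an interval of -0.24 to 0.29. Its neuronal accessory subunit KCNMB4 had the smallest p of the class, at 22.9 ± 1.18 against 20.6 ± 1.86 CPM (0.15, SE 0.12, edgeR unadjusted p = 0.254). The small-conductance channels, which open with the calcium that enters during spikes and lengthen the pause after them, were at 7.72 ± 1.99 against 7.60 ± 0.575 CPM for KCNN2 (0.02, SE 0.20) and at 21.7 ± 3.07 against 23.4 ± 1.91 CPM for KCNN3 (-0.10, SE 0.14). For KCNN3 the interval of -0.41 to 0.21 excludes a 1.5-fold change.

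The HCN pacemaker genes had 2 members higher and 2 lower. HCN2 was at 54.9, 70.8, 26.6 and 38.3 CPM in food-restricted pools 1 to 4 and at 40.0, 26.3, 62.0 and 47.5 CPM in well-fed pools 1 to 4. In both groups the highest HCN2 pool was more than 2-fold the lowest, and the means were 47.7 ± 19.3 against 44.0 ± 14.9 CPM (0.12, SE 0.31). HCN3 was at 17.9 ± 3.91 against 19.4 ± 3.05 CPM (-0.11, SE 0.19) and HCN4 at 8.60 ± 1.11 against 8.48 ± 1.09 CPM (0.02, SE 0.17), and HCN3 had the smallest p of the class (edgeR unadjusted p = 0.559).

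Sodium channel pores had 2 of 7 members higher and 5 lower (median -0.02). SCN8A, the main channel of the adult axon initial segment, was among the steadiest members, at 62.5 to 71.5 CPM in food-restricted pools and 67.2 to 74.2 CPM in well-fed pools (log2 fold change -0.06, SE 0.10, interval -0.28 to 0.16). SCN2A was at 53.6 ± 3.57 against 54.4 ± 8.18 CPM (-0.02, SE 0.13) and SCN3A, the form of immature neurons, at 33.3 ± 8.93 against 32.6 ± 6.28 CPM (0.03, SE 0.21). SCN9A was at 2.85 ± 1.28 against 2.84 ± 1.55 CPM, with an interval of -1.04 to 1.04. SCN11A, a channel of sensory neurons, had the smallest p of the class at under 1 CPM in 7 of 8 pools (0.727 ± 0.727 against 0.508 ± 0.115 CPM; edgeR unadjusted p = 0.476). All 4 beta subunits were below 0 in the fit, by little (median -0.07), where 8561 of 18193 tested genes were below 0. These signs held under 3 other scalings of the same 8 pools. SCN3B was at 228 ± 18.5 against 232 ± 24.4 CPM (-0.03, SE 0.11) and SCN4B, the member with the smallest p, at 18.0 ± 2.52 against 19.5 ± 1.31 CPM (-0.12, SE 0.14, edgeR unadjusted p = 0.427).

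Calcium channel pores had 6 of 9 members higher and 3 lower (median 0.10), with 0 calls. The channels of nerve terminals were at 65.8 ± 11.1 against 61.5 ± 4.20 CPM for CACNA1A (0.10, SE 0.13) and at 88.2 ± 8.40 against 81.01 ± 8.76 CPM for CACNA1B (0.12, SE 0.12). The L-type channels, which couple activity to transcription, were at 27.8 ± 6.97 against 26.7 ± 4.75 CPM for CACNA1C (0.06, SE 0.20) and at 27.7 ± 2.43 against 25.3 ± 2.22 CPM for CACNA1D (0.13, SE 0.12). CACNA1S, the L-type channel of skeletal muscle, had the smallest p of the class, at 5.36 ± 0.963 against 4.43 ± 0.605 CPM (0.27, SE 0.20, edgeR unadjusted p = 0.204). CACNA1E was at 9.97 ± 3.05 against 12.1 ± 3.11 CPM (-0.28, SE 0.25).

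The T-type genes, whose channels open near rest and drive bursts, differed widely between pools of 1 group. CACNA1H was at 113, 177, 79.1 and 86.6 CPM in food-restricted pools 1 to 4 and at 67.0, 59.0, 135 and 118 CPM in well-fed pools 1 to 4, so the highest food-restricted pool held more than 2-fold the level of the lowest (means 114 ± 44.6 against 94.7 ± 37.4 CPM; log2 fold change 0.27, SE 0.31). CACNA1G was at 82.9, 115, 61.6 and 80.4 CPM in food-restricted pools 1 to 4 and at 79.3, 69.3, 104 and 102 CPM in well-fed pools 1 to 4 (means 85.1 ± 22.3 against 88.7 ± 17.2 CPM; -0.06, SE 0.20). In both genes the groups overlapped and the same 4 pools were the highest. CACNA1I was uneven, at 1.94 to 6.15 CPM in food-restricted pools and 1.09 to 8.34 CPM in well-fed pools.

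Accessory calcium channel subunits did not pass either. CACNA2D1, the gabapentin-binding subunit that brings channels to the membrane, was at 133 ± 33.9 against 120 ± 20.6 CPM (0.15, SE 0.19), and CACNA2D2, with the smallest p of its class, at 70.8 ± 6.57 against 76.6 ± 8.49 CPM (-0.11, SE 0.12, edgeR unadjusted p = 0.367). CACNB3 was at 78.5 ± 7.03 against 89.3 ± 7.10 CPM (-0.19, SE 0.11, edgeR unadjusted p = 0.121). The beta subunit gene CACNB4 was at 0.492, 0.742, 0.840 and 1.26 CPM in food-restricted pools 1 to 4 and at 0.417, 0.286, 0.729 and 0.338 CPM in well-fed pools 1 to 4, levels at which the difference of 0.90 (SE 0.52) has an interval of -0.25 to 2.05. Of the gamma genes, several of which code for partners of AMPA glutamate receptors rather than of calcium channels, 2 of 7 were higher and 5 lower. CACNG2 was at 13.8 ± 3.24 against 13.4 ± 4.30 CPM (0.04, SE 0.25), and CACNG5 had the smallest p of the class (0.879 ± 0.638 against 1.42 ± 0.611 CPM; -0.70, SE 0.56, edgeR unadjusted p = 0.241).

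The pools differed more along the first principal component than by feeding. In 80 of 115 members the mean log2 difference between the pools above and below 0 was larger in size than the feeding difference, and this was so for 13145 of all 18193 tested genes too. In 19 members (16.5%, against 14.2% of all tested genes) the 4 pools above 0 were all higher than the 4 below, and in 6 members (5.22% against 8.93%) they were all lower. The sides were taken from these same data, the members among them, so these counts are a description with no test, and the genes named for it were chosen after their values were seen. A higher mean above 0 was seen in 65 of 115 members and in 8161 of 18193 tested genes. The median log2 difference was 0.09 over the members and -0.05 over all tested genes, again with no test.

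The channels that were higher above 0 covered several classes. CACNA1H was at 136 ± 29.2 CPM in the 4 pools above 0 and 72.9 ± 12.3 CPM in the 4 below (SD), a 1.85-fold ratio. HCN2 was at 58.8 ± 9.95 CPM in the 4 pools above 0 and 32.8 ± 7.36 CPM in the 4 below (SD), a 1.80-fold ratio. KCNH2, the ether-a-go-go channel also known from heart, was at 68.9 ± 9.17 CPM in the 4 pools above 0 and 37.5 ± 11.0 CPM in the 4 below (SD), a 1.88-fold ratio. KCNQ1 was at 8.99 ± 1.87 CPM in the 4 pools above 0 and 4.61 ± 0.676 CPM in the 4 below (SD), a 1.92-fold ratio. KCNK3, the member with the largest such difference, was at 4.31 ± 1.69 CPM in the 4 pools above 0 and 1.40 ± 0.833 CPM in the 4 below (SD), a 3.31-fold ratio. KCNG1 was at 6.39 ± 0.827 CPM in the 4 pools above 0 and 2.18 ± 0.498 CPM in the 4 below (SD), a 2.93-fold ratio. CACNA1G, CACNA1C, CACNG2, CACNG4, CACNG7, CACNG8, KCNT1, KCNJ4, KCNK10, KCNF1 and KCNIP3 split in the same way. So did 1 sodium channel pore gene and 1 sodium channel beta subunit gene. By class, all 9 calcium channel pores, all 7 gamma genes and 9 of 11 K2P genes had a higher mean above 0 (median log2 differences 0.19, 0.45 and 0.43). Of the Kv pores 4 of 15 did (median -0.12), and of all tested genes 8161 of 18193 did. These classes were picked after their values were seen. The 6 members that were lower in all 4 pools above 0 were KCNA6, KCND2, KCNAB1, KCNJ10, KCNMA1 and SCN3B. KCND2 was 1.32-fold and KCNMA1 1.16-fold lower there.

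**Figure D3:**
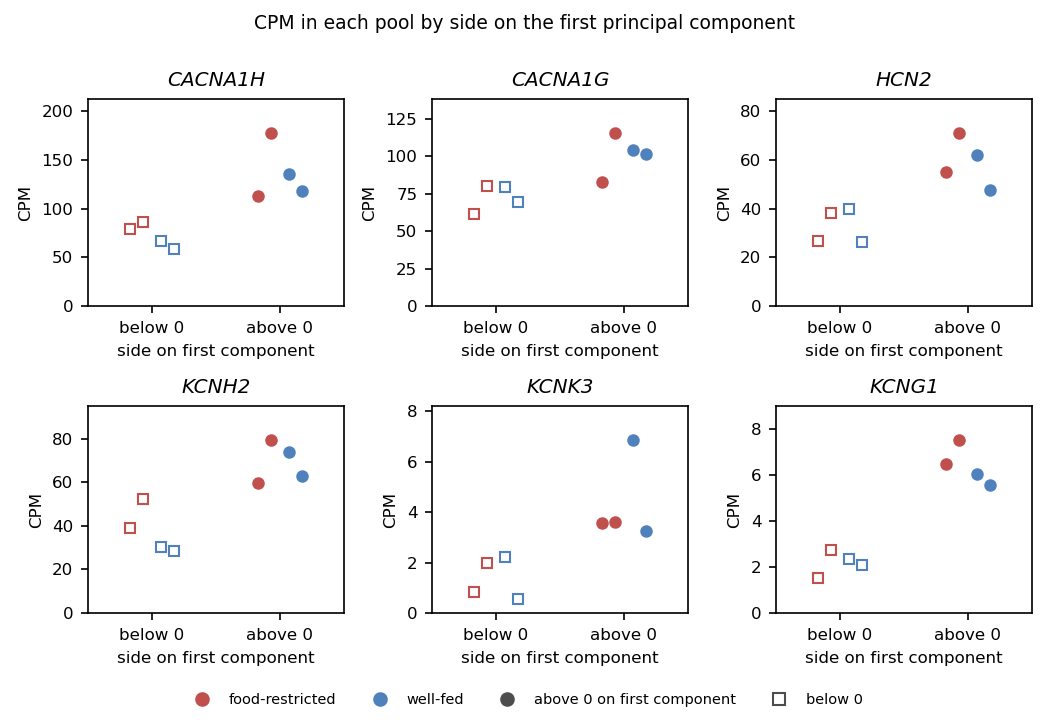
CPM (y axis, from 0) of 6 members in each pool, by the side of the pool on the first principal component (x axis). Colours are the feeding groups, and each side holds 2 pools of each. In all 6 genes the 4 pools above 0 are higher than the 4 below, while the colours mix on each side except for CACNA1H and KCNH2 below 0 and KCNG1 above 0.

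**Figure D4:**
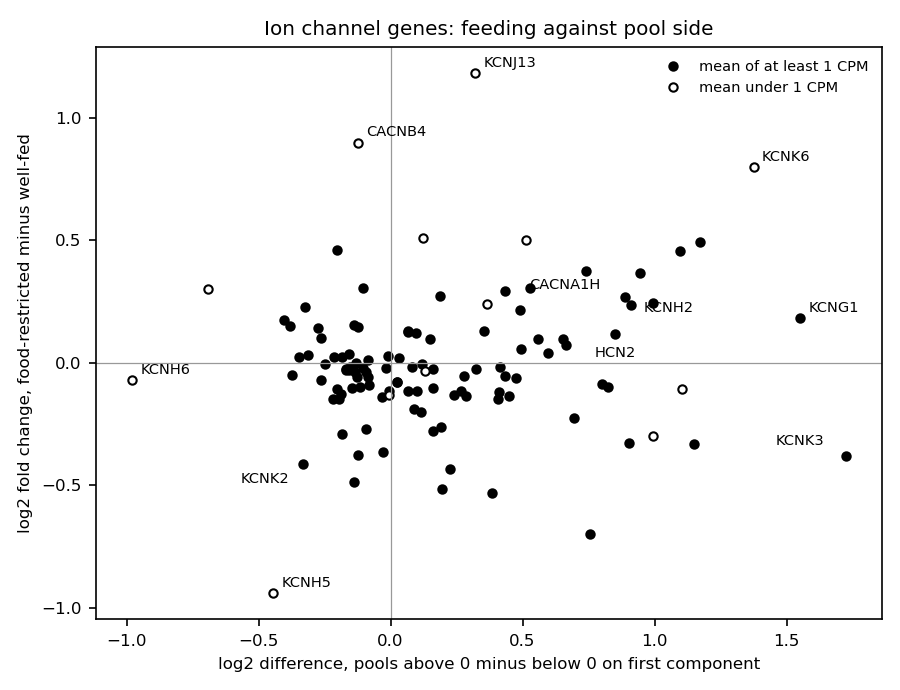
Each point is 1 of 115 ion channel genes, with its log2 difference between the pools above and below 0 on the first principal component (x axis) and its log2 fold change between food-restricted and well-fed pools (y axis). Points spread further along x than along y, and the points far from 0 on the y axis are mostly open circles, which have means under 1 CPM.

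With the side as a block, 5 of 115 members and 817 of 18193 tested genes had an unadjusted edgeR p under 0.05. Without the block 122 tested genes were higher and 187 lower at such a p. The sides were taken from these same data, so p-values of the blocked fit are given as a description. Estimates were below 0 in 3 of them, among them KCNK2 and KCNK12, and above 0 in the other 2, CACNA1H and KCNH2. The food-restricted mean of CACNA1H was 1.12-fold higher among the pools above 0 and 1.32-fold among those below, and its blocked estimate was 0.30 (edgeR unadjusted p = 0.0356, adjusted p = 0.991). For KCNH2 these ratios were 1.01-fold and 1.54-fold (edgeR unadjusted p = 0.0445, adjusted p = 0.991), so the excess was seen below 0 and hardly above. HCN2 had ratios of 1.15-fold above 0 and 0.984-fold below, and CACNA1G of 0.948-fold and 0.950-fold. Each ratio compares 2 pools with 2 on the log2 scale.

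Classes differed in how far single pools departed from their mean. The median deviation of the K2P genes was 0.64 on the log2 scale in food-restricted pool 2 and between -0.20 and 0.21 in the other 7 pools. The ether-a-go-go genes stood at 0.57 in that pool and at -0.36 in food-restricted pool 3. The inward rectifier, Kv accessory and Kv pore genes stayed between -0.16 and 0.20 in all 8 pools. Their median SEs of the log2 fold change were 0.15 to 0.17, against 0.48 for ether-a-go-go and 0.30 for K2P genes. KCNH1, KCNH5, KCNH6, KCNK7 and KCNK9 had means under 1 CPM in both groups. The part of counting error in these deviations was not tested. Summed over the class, calcium channel pores ran from 350.5 to 560.8 CPM in food-restricted pools and from 322.4 to 487.0 CPM in well-fed pools, and HCN genes from 58.0 to 111.9 CPM and from 65.4 to 103.9 CPM.

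**Figure D5:**
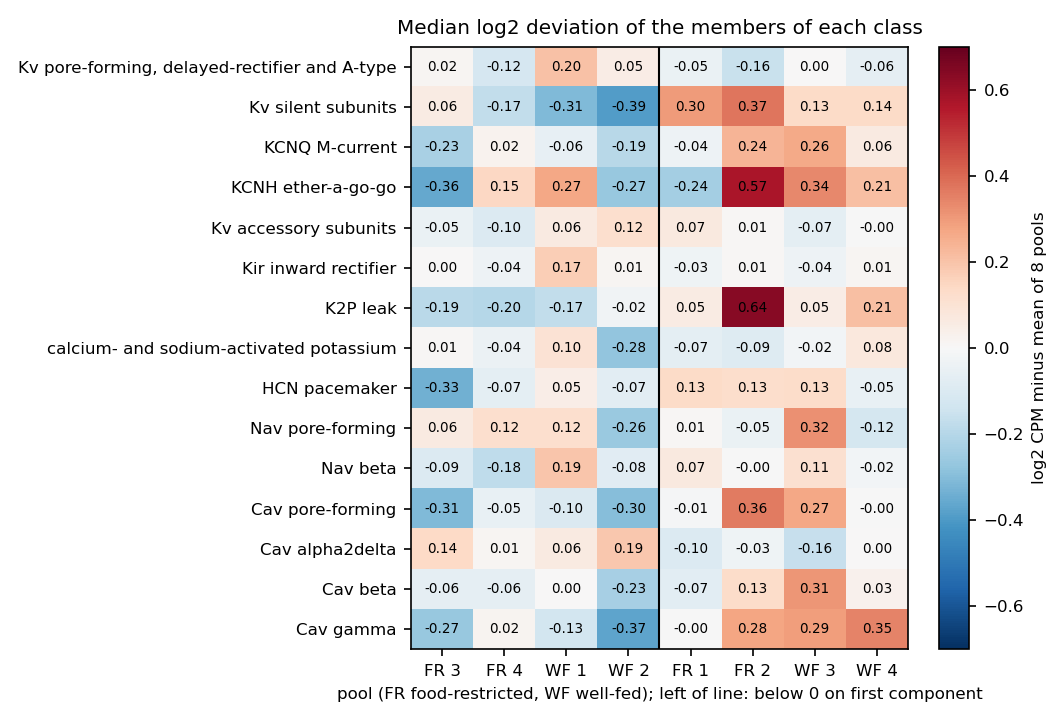
Median over the members of each class (rows) of log2 CPM minus the gene's mean over the 8 pools, in each pool (columns), red above and blue below 0. Pools left of the line lie below 0 on the first principal component. Gamma genes range from -0.37 to 0.35, and inward rectifiers from -0.04 to 0.17.

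Other proteins that set excitability were read from a list of 51 partner genes, among them pumps, exchangers, leak channels and channel-binding proteins. Of these, 50 were tested and 0 passed and 0 had an unadjusted edgeR p under 0.05, with 28 higher and 22 lower (median log2 fold change 0.03). In 1 of the 50, ABCC9, all food-restricted pools lay below the well-fed pools, where 1.1% of all tested genes did. In 0 of them all lay above, where 0.495% of all tested genes did. NALCN, the sodium leak channel, was at 89.8 ± 10.9 against 85.6 ± 9.30 CPM (0.07, SE 0.12) and its partner NALF2 at 18.7 ± 1.58 against 21.9 ± 2.49 CPM (-0.22, SE 0.14). SLC12A5, the chloride exporter that makes GABA inhibitory, was at 190 ± 23.2 against 183 ± 17.6 CPM (0.05, SE 0.12). TRPC4, a cation channel opened by receptors, was at 7.25 ± 0.797 against 9.06 ± 0.582 CPM (-0.32, SE 0.15, edgeR unadjusted p = 0.0596). ABCC9, the sulfonylurea receptor of vascular ATP-sensitive channels, was at 1.15, 3.71, 2.92 and 3.37 CPM in food-restricted pools 1 to 4 and at 5.56, 4.37, 4.40 and 3.80 CPM in well-fed pools 1 to 4, without overlap (log2 fold change -0.70, SE 0.33, edgeR unadjusted p = 0.0596). KCNJ8, its pore and a pericyte marker outside the list, was at 9.67, 9.84, 10.1 and 8.82 CPM in food-restricted pools 1 to 4 and at 10.1, 13.4, 10.8 and 14.7 CPM in well-fed pools 1 to 4, also without overlap, by 10.05 against 10.08 CPM at the nearest pools (-0.35, SE 0.16, edgeR unadjusted p = 0.0519). On the log2 fold change scale, the pericyte genes RGS5 and PDGFRB were at 0.11 and 0.04, and ACTA2 of the same marker list was at -0.16. Of the 11 endothelium and pericyte markers, which hold ABCC9 and KCNJ8, 5 were higher and 6 lower (median -0.01; summed levels of 444.1 to 525.5 and 438.5 to 494.6 CPM). Their part in the ABCC9 value was not tested.

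No marker of a cell type passed the test for feeding. The 16 tested neuron markers had 11 higher and 5 lower (median 0.06), with summed levels of 6726 to 7549 CPM in food-restricted and 6763 to 7141 CPM in well-fed pools. Mature oligodendrocyte markers had 10 of 11 higher (median 0.09; 4188 to 5699 against 4054 to 5681 CPM), and microglia and macrophage markers 2 of 9 higher (median -0.06; 403.6 to 424.8 against 391.3 to 453.7 CPM). Pituitary genes, from tissue next to the block, summed to 2924 to 3563 CPM and 2361 to 4350 CPM, and POU1F1 of that list had too few reads for the test. Among all marker lists, 3 genes had an unadjusted edgeR p under 0.05, each with all food-restricted pools below the well-fed pools. They were the macrophage gene MRC1 (-0.89, SE 0.26), the collagen gene COL3A1 (-0.40, SE 0.14) and the haemoglobin gene HBB (-2.01, SE 0.82), the last at 0.00 to 0.796 CPM in food-restricted pools and 0.909 to 3.73 CPM in well-fed pools. MRC1 was 1 of 9 tested microglia and macrophage markers and COL3A1 1 of 7 tested Schwann cell and meninges markers. HBB was the only red blood cell gene tested. Of all tested genes, 1.03% were lower at such a p and 1.1% had all food-restricted pools below. The part of these cell types in the channel values was not tested.

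Some channel genes lie side by side in the genome, and 12 pairs of members are next to each other among protein-coding genes of the RefSeq sheep assembly ARS-UI_Ramb_v3.0, used for order only. The log2 fold changes of neighbours had the same sign in 8 pairs and opposite signs in 4. KCNA1 and KCNA6 had log2 fold changes of -0.29 and -0.07, KCNJ10 and KCNJ9 of -0.03 and -0.12, SCN2A and SCN3A of -0.02 and 0.03, and CACNG7 and CACNG8 of -0.13 and 0.10.

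At the lower edge of the list, KCNMB3 (102 counts over the 8 pools), KCNE1 (139) and KCNH5 (141) were just inside the total of 80, and KCNK16 (67), KCNV2 (64), KCNJ15 (63) and KCNRG (63) just outside. KCNMB3 was listed at 0 in well-fed pool 2, where 3 counts, the most that a count of 0 allows, equal 0.0779 CPM for counting error alone. KCNH5 had the lowest estimate of all members (-0.94, SE 0.76), with pools at 0.0936 to 0.598 CPM in food-restricted pools and 0.113 to 0.922 CPM in well-fed pools. The table holds 3 further channel genes under LOC names, which the symbol rule does not reach. SCN1A was at 0.703 ± 0.399 against 0.997 ± 0.503 CPM (-0.51, SE 0.59) and KCNJ6 at 0.719 ± 0.433 against 0.922 ± 0.706 CPM (-0.37, SE 0.71), both in overlapping pools, and KCNH7 had 43 counts in all and was not tested.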

How the data were processed

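The mRNA of the mediobasal hypothalamus was sequenced from 4 food-restricted and 4 well-fed pools of 15 ewes, in stranded libraries per the labels' protocols. The authors deposited raw read counts per gene in 1 table, per the file headers. The submitters' processing notes name the tools TopHat2 2.1.1, Bowtie2 2.3.5.1 and featureCounts 2.0.0, beside bcl2fastq 2.20, SAMtools 1.9 and FastQC. The sources used here do not give the build, annotation, strand setting or treatment of shared reads, so overlapping genes and close copies are uncertain. The labels do not say whether a ewe could be in more than 1 pool, and p-values measure the spread between pools.

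In R 4.3.3, edgeR 4.0.16 kept 18193 genes (filterByExpr, minimum count 10, minimum total 15), scaled them by TMM and compared the groups with its quasi-likelihood F test. There was no covariate. The Benjamini-Hochberg adjustment ran over these genes, and the threshold was 0.05. SEs were derived from each estimate and its F value, and 95% intervals use the t quantile of the fit. Component scores and deviations use log2 CPM with a prior count of 2. The fit was tested on simulated data. No 2 pools of a group agreed within sampling noise (lowest chi-square per degree of freedom 23.9). Names for LOC rows and the gene order came from a RefSeq gene table, where all 115 members were found by gene ID. No sequences are printed.

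The members and lists were chosen with earlier results of these data known. Named were a fixed set of 42 channel genes, the 12 members with the smallest p, the smallest p of each class, the 4 partners with the smallest p and 4 fixed partners, and the genes beside the total of 80 counts. Some of these genes are not reported here. Other genes named were chosen after their values were seen. Alternatives were 3 other scalings, 2 other filters, robust edgeR, DESeq2 1.42.0, limma voom (limma 3.58.1), the replicate number or the side on the leading component as a block, leaving out each pool, and 2 other minimum totals.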

Additional observations from a re-analysis of the deposited data

Results flagged for a closer look

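In 132 groups of 4 pools, 1 for each named gene and feeding group, 8 had a single pool whose gap to its nearest neighbour, as a share of the group's range, was above Dixon's 95% critical value, where chance gives about 1 in 20 groups. Food-restricted pool 3 was the outlying pool in 4 of them. It was low for CACNG2 (8.98 CPM, the others 14.9 to 16.0), HCN3 (12.1, the others 19.0 to 20.4) and KCNJ9 (49.1, the others 59.5 to 61.3), and high for KCNMA1 (123.4, the others 96.2 to 99.0). Food-restricted pool 2 was high for CACNA1I (6.15 CPM, the others 1.94 to 2.43) and KCNJ11 (26.2, the others 19.1 to 20.0). Food-restricted pool 1 was low for KCNE3 (1.10 CPM, the others 2.04 to 2.15), and well-fed pool 2 was low for KCNK12 (6.68, the others 8.38 to 8.63).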

How the results depend on the processing

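In all 20 alternatives 0 members were called higher and 0 lower by adjusted p, and 0 of the 66 named genes tested were called. The 2 other minimum totals only change the member list of the main fit, so their 0 calls were fixed by it. Their log2 fold changes kept their sign in every alternative for 38 genes and changed it in at least 1 for 28, all of them uncalled. The median over the members was -0.03 and ran from -0.05 to 0.02 when each pool was left out in turn. At an unadjusted p under 0.05, the fit with the component side as a block gave 2 members higher and 3 lower, where 817 of 18193 tested genes had such a p. Without 1 pool, between 0 and 1 members were higher, with 1 each without food-restricted pools 2, 3 or 4. Between 1 and 3 were lower, with 1 without food-restricted pool 1 or 3 or without well-fed pool 1 or 4. Of all tested genes in these fits, 0.514% to 2.7% were higher and 0.66% to 1.73% lower at such a p, with 2.7% and 1.73% without food-restricted pool 2. Between 0 and 1 members had all food-restricted pools above, with 1 each (0.87%) without food-restricted pools 1, 2 or 3 or well-fed pools 2 or 3, where 1.18% to 3.68% of all tested genes did. Between 2 and 7 had them all below, with 5 (4.35% against 2.94% of all tested genes) without food-restricted pool 2, 7 (6.09% against 1.79%) without well-fed pool 2, and 4 (3.48%) without food-restricted pool 4 (against 2.33%) or well-fed pool 4 (against 2.34%). There were 3 (2.61%) without food-restricted pool 1 (against 1.69%) or well-fed pool 3 (against 2.13%). The remaining fits gave 2 (1.74%), without food-restricted pool 3 (against 2.37%) or well-fed pool 1 (against 1.87%). Fewer pools make a lack of overlap easier to reach. With the replicate block, that is the replicate number of the labels as a block, 0 members were lower at an unadjusted p under 0.05, KCNK2 included. The share of all tested genes at such a p was not counted for that fit. Deviations of same-numbered pools correlated at -0.42 to -0.21 over all genes, and the numbers were not taken as pairs. The cause of these differences was not tested. Depth limits the 13 members under 1 CPM most.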
